A study of Mus musculus with 4 samples.

Results

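The genes of MHC class II antigen presentation were followed in blood of aging mice treated with naringenin (Nar), a flavonoid. They were matched by gene symbol, as Cd74, H2-Aa, H2-Ab1, H2-Eb1, H2-DMa, H2-DMb1, H2-Oa, H2-Ob and Ciita, and all 9 were found among the 17823 genes with values in the blood data. The mice were C57BL/6, given in the paper as 12 months old and in the sample labels only as adult. Nar was injected at 20 mg/kg into the tail vein over 30 days, while the control (Ctrl) libraries are labelled as PBS, a salt buffer, for the same time. There were 2 libraries per group, numbered 1 and 3 in each, and no source used here says whether a library came from 1 mouse or from a pool, so p-values measure only the spread between these libraries.

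The values are FPKM, that is, fragments counted per kilobase of transcript and relative to all mapped fragments in a library, and how many reads they rest on is not known. Haemoglobin genes took between 92.6% and 96.4% of the summed FPKM of a library, as a blood sample that still holds its red cells would show, and other genes share what is left. Ctrl 3 stood apart in platelet genes, whose 7 markers summed to 2182 FPKM against 449 to 687 FPKM in the other libraries. In bulk blood, fewer cells of a type and less RNA per cell cannot be told apart.

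MHC class II molecules carry peptides from engulfed proteins to the cell surface, where CD4+ T cells read them. An alpha chain and a beta chain (H2-A or H2-E in the mouse) assemble on the invariant chain Cd74, which blocks the peptide groove until endosomal proteases cut it away. The editor H2-M then helps peptides exchange, and H2-O, found mainly in B cells, restrains H2-M. Ciita is the transactivator without which class II genes are hardly transcribed. It binds no DNA itself but sits on the factors RFX, CREB and NF-Y, which hold the X and Y boxes of class II promoters. In blood, class II is known as a mark of B cells, dendritic cells and some monocytes.

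The promoter windows are shown first, because the shared X and Y boxes are what places these genes under a single transactivator. RefSeq promoters of 300 bases (GRCm38.p6, from 250 bases before the start to 50 bases after it) were matched for 6 of the 9 genes, with 7 promoters in all. The set searched held no promoter for Cd74, H2-Ab1 and Ciita, so theirs were not examined. Capitals mark the Y box core TGATTGG (the reverse complement of the CCAAT box with its flanking bases) and, 20 to 30 bases upstream of it, the letters GNAAC of the X box. Both strands were searched, the X and Y cores cannot overlap at this spacing, and the spacing was chosen after the sequences were seen.

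H2-Aa, chr17:34287859-34287916, minus strand: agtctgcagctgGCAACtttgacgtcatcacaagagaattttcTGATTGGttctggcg
H2-Eb1, chr17:34305764-34305820, plus strand: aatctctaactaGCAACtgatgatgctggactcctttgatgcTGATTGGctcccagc
H2-Oa, chr17:34092291-34092348, plus strand: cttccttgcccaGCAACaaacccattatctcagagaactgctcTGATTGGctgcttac
H2-Ob, chr17:34238806-34238860, plus strand: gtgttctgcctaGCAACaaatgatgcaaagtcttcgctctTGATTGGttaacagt
H2-DMb1, chr17:34153085-34153142, plus strand: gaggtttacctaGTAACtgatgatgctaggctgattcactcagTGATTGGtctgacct

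In these 5 genes the Y box core began 45 to 63 bases before the start. The promoters of H2-DMa held neither the pair nor the Y box core. Of 32851 mouse promoters of the same length, 2568 (7.82%) held the Y box core and 106 (0.323%) held both cores at this spacing. A match of letters is a description and does not show that a factor was bound.

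The invariant chain Cd74 (gene ID 16149, chromosome 18) had the highest level of the 9 genes. Its FPKM was 105.03 and 111.42 in the Ctrl libraries, against 66.44 and 62.80 in the Nar libraries, where pairs of values here and below give the library numbered 1 before the library numbered 3. The Nar values were both below the Ctrl values, and the libraries of a group differed by 5.90% of their mean in Ctrl and by 5.63% in Nar. The mean was 108 ± 4.52 FPKM in Ctrl and 64.6 ± 2.57 FPKM in Nar (SD, n = 2 each), which was 59.7% of the Ctrl level. On the log2(FPKM + 0.1) scale, on which all fold changes below are given as Nar minus Ctrl, the difference was -0.74 (SE 0.48, limma adjusted p = 0.200), with a 95% interval from -1.82 to 0.34. The SE of limma borrows the spread of all genes, and the SE from the 4 Cd74 values alone was 0.0588.

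H2-Aa and H2-Ab1 encode the alpha and beta chains of the classical H2-A molecule and followed Cd74 in level. H2-Aa (14960, chr17:34282744-34287823) was listed at 37.58 and 37.10 FPKM in the Ctrl libraries and at 23.14 and 24.32 FPKM in the Nar libraries. H2-Ab1 (14961, chr17:34263227-34269418) was at 27.07 and 27.72 FPKM in Ctrl, against 14.42 and 16.09 FPKM in Nar. For both chains the groups did not overlap, and each Nar mean was between 55.7% and 63.6% of its Ctrl mean. The log2 fold change of H2-Aa was -0.65 (SE 0.49, adjusted p = 0.264). That of H2-Ab1 was -0.84 (SE 0.49, adjusted p = 0.162), the largest difference among the 7 genes tested.

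H2-Eb1 encodes the beta chain of H2-E, whose alpha chain gene Ea is not functional in C57BL/6 mice. H2-Eb1 (14969, chr17:34305867-34316674) was listed at 1.12 and 0.95 FPKM in the Ctrl libraries and at 0.69 and 0.48 FPKM in the Nar libraries. It was lower in both Nar libraries (-0.74, SE 0.36, adjusted p = 0.111). Its level was far below that of H2-Ab1, which exceeded it 24.2 and 29.2 times in the Ctrl libraries and 20.9 and 33.5 times in the Nar libraries. How the authors' counting treated the H2-Eb1 transcript is not given, so the size of this gap is uncertain. The Ea pseudogene, H2-Ea-ps, was listed at 0 in all 4 libraries.

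The inhibitory pair H2-O was also lower in both Nar libraries. H2-Oa (15001, chr17:34092379-34095234), the alpha chain, was at 2.52 and 2.38 FPKM in Ctrl, against 1.61 and 1.48 FPKM in Nar. H2-Ob (15002, chr17:34238905-34245908), the beta chain, was listed at 4.23 and 2.70 FPKM in the Ctrl libraries and at 2.48 and 1.41 FPKM in the Nar libraries. H2-Oa libraries of a group lay close together, while H2-Ob was higher in the library numbered 1 of each group and its groups were nearly in contact. The log2 fold change of H2-Oa was -0.63 (SE 0.37, adjusted p = 0.161). That of H2-Ob was -0.82 (SE 0.45, adjusted p = 0.145) and moved with the libraries used, from -0.43 without Nar 3 and -0.50 without Ctrl 1 to -1.21 without Nar 1.

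The chains of the editor H2-M had the lowest levels of the 9 genes. H2-DMa (14998, chr17:34119693-34139101), its alpha chain, was at 0.11 and 0.10 FPKM in Ctrl, against 0.08 and 0 FPKM in Nar. H2-DMb1 (14999, chr17:34153191-34160229), a beta chain, was listed at 0.89 FPKM in Ctrl 1 and at 0 in the other 3 libraries. Neither gene reached the mean of 0.5 FPKM needed for the test, and the H2-DMb1 groups overlapped. The neighbouring beta chain gene H2-DMb2, which is not among the 9 genes, was listed at 1.32 and 2.40 FPKM in the Ctrl libraries and at 3.59 and 1.42 FPKM in the Nar libraries, and its groups overlapped too (0.33, SE 0.51, adjusted p = 0.579). That value was 0.97 without Nar 3, -0.08 without Ctrl 1 and -0.31 without Nar 1, so its direction rested on single libraries. H2-DMb1 and H2-DMb2 transcripts were 94.6% identical over 1219 aligned bases and shared 369 stretches of 50 bases, so reads could have been split between them. The sum of both beta chain genes was 2.31 ± 0.134 FPKM in Ctrl and 2.51 ± 1.53 FPKM in Nar (SD, n = 2 each). H2-DMa overlaps Brd2 over 3122 bases, so its low values are uncertain as well.

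The transactivator Ciita (12265, chr16:10480014-10531064) was at 0.96 and 0.78 FPKM in Ctrl, against 0.73 and 0.34 FPKM in Nar. Nar 1 lay just below Ctrl 3, and Nar 3 was the lowest of the 4 libraries. The log2 fold change was -0.68 (SE 0.42, adjusted p = 0.187) and ranged from -0.22 without Nar 3 to -1.13 without Nar 1.

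Per length of transcript, the order of the mean levels was Cd74, H2-Aa, H2-Ab1, H2-Ob, H2-Oa, H2-Eb1, Ciita, H2-DMb1 and H2-DMa. The first 4 were in this order in all 4 libraries with no overlap between neighbours. H2-Ob and H2-Oa overlapped in Nar, and H2-Eb1 and Ciita overlapped in both groups. Ciita and H2-DMb1 overlapped in Ctrl, and H2-DMb1 and H2-DMa in both groups. Cd74 alone made up 58.5% to 60.8% of the summed FPKM of the 9 genes in every library. That sum was 179.51 and 183.15 in the Ctrl libraries, against 109.59 and 106.92 in the Nar libraries.

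Of the 9 genes, 7 entered the test and 0 of these passed an adjusted p of 0.05 in limma in either direction, while 39.6% of the 5339 genes tested passed as lower and 0.187% as higher with Nar. At an unadjusted p under 0.05 there were also 0 of 7, against 56.9% of all genes tested. The groups did not overlap, with Nar lower, in 7 of the 7 genes tested and in 8 of all 9, but so it was in 78.3% of the genes tested. Nar was higher without overlap in 0 of 9, against 1.27% of the genes tested. For 1 gene at a time, the exact two-sided permutation test over 2 and 2 libraries has 0.33 as its smallest p.

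With all 4 libraries the 7 genes tested differed little among themselves in value, each with an SE of 0.36 to 0.49. Their log2 fold changes spanned 0.21, from -0.84 to -0.63, with a median of -0.74. That range widened with 1 library left out, to -0.92 to -0.22 without Nar 3 and -1.21 to -0.62 without Nar 1. It was -1.13 to -0.66 without Ctrl 3 and -0.86 to -0.50 without Ctrl 1. With a pseudocount of 1 it was -0.81 to -0.29. The middle 50% of all genes tested spanned from -1.40 to -0.73 with a median of -1.07, and 68.9% of genes had a lower value than any of the 7. The median of the 7 genes lay 0.33 above the all-gene median, a difference without a test that became 0.017 with a pseudocount of 1, 0.14 without Ctrl 3 and -0.17, the other way, with no filter on low genes.

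The sign of the difference rested on the scale. Scaling by the median of ratios, which levels the typical gene between libraries, moved the all-gene median to -0.06 and put all 7 genes above 0, between 0.24 and 0.45, with adjusted p-values from 0.704 to 0.936. On that scale 0 of 7 passed, against 0.356% of all genes as lower and 0.112% as higher. After removal of the haemoglobin genes and rescaling of the remainder, the 7 values were negative, between -0.23 and -0.03, beside an all-gene median of -0.56, and 0 of 7 passed (adjusted p 0.712 to 0.961). As a percentage of all FPKM outside haemoglobin, the 9 genes made up 0.240% and 0.167% in the Ctrl libraries, against 0.166% and 0.188% in the Nar libraries. These shares overlapped between the groups, with Ctrl 1 above the other 3 libraries.

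**Figure D1:**
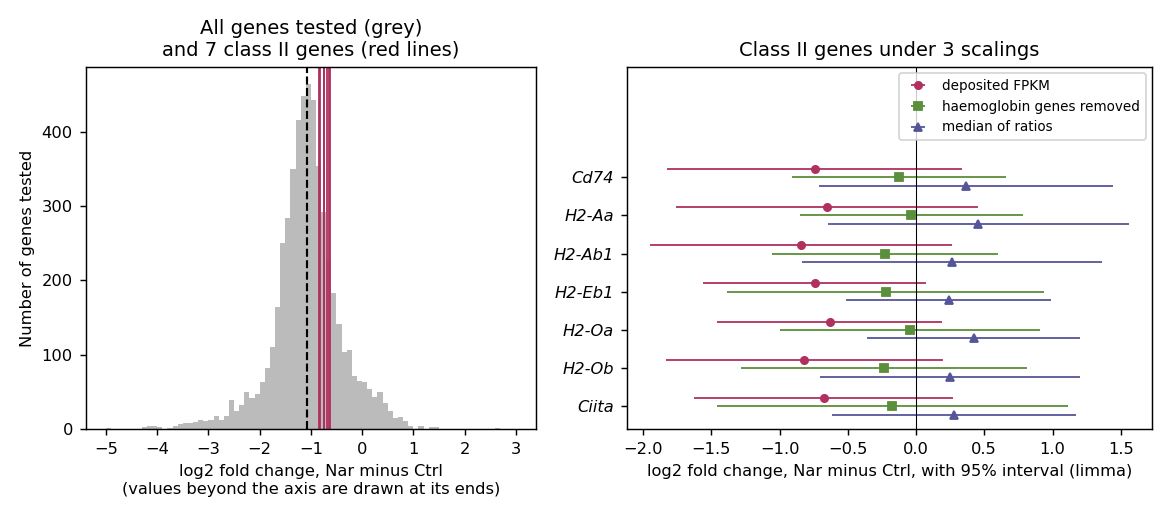
Left, histogram of the log2 fold change (Nar minus Ctrl) of all 5339 genes tested, with the 7 class II genes as red lines and the all-gene median of -1.07 dashed; right, the 7 genes under 3 scalings with 95% limma intervals. The red lines fall between -0.84 and -0.63, and on the right the points lie below 0 on the deposited scale, close to 0 without haemoglobin and above 0 under the median of ratios, with every interval crossing 0.

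Ratios between genes within a library do not depend on that scale, and those of Cd74 to H2-Aa and of H2-Aa to H2-Oa were steady. The Cd74 to H2-Aa ratio was 2.79 and 3.00 in the Ctrl libraries, against 2.87 and 2.58 in the Nar libraries. The H2-Aa to H2-Oa ratio was 14.9 and 15.6 in the Ctrl libraries, against 14.4 and 16.4 in the Nar libraries. Both ratios overlapped between the groups, and the highest value was no more than 1.16 times the lowest. The H2-Aa to H2-Ab1 ratio did not overlap between the groups, at 1.39 and 1.34 in Ctrl and 1.60 and 1.51 in Nar (exact permutation p = 0.33, the smallest possible). The H2-Ob to H2-Oa ratio was less steady, at 1.68 and 1.13 in Ctrl, against 1.54 and 0.953 in Nar, and followed the library number more than the group. The Cd74 to Ciita ratio ranged from 91.0 in Nar 1 to 184.7 in Nar 3, with both Ctrl libraries between them.

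To test differences from Cd74 directly, each library was divided by its Cd74 level and limma was run over the other 5338 genes, a fit chosen after the data were seen. The 6 other class II genes tested lay between -0.10 and 0.11, and 0 of 6 passed as different from Cd74 (adjusted p of at least 0.894), against 2.49% of genes called lower and 0.187% called higher than Cd74. Their 95% intervals reached from -1.15 to 1.15. These intervals are not adjusted for the number of genes, so they do not give the size a gene needed to pass. In the same fit a neutrophil marker at -2.12 did not pass (limma adjusted p = 0.0545), while another at -2.16 did (adjusted p = 0.0400). The smallest difference from Cd74 that these libraries could detect was not tested.

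The other genes of the pathway are given by role, first those that act on class II transcription. RFX, NF-Y and CREB subunits (7 genes with values) were low, at 1.79 FPKM or less, and only Nfyc reached the test. It was lower with Nar (-1.11, SE 0.34, adjusted p = 0.0354), as were 39.6% of all genes tested, and its value was near the all-gene median of -1.07. It did not pass with haemoglobin removed (-0.59, adjusted p = 0.478) or under the median of ratios (-0.09, adjusted p = 0.975). In 6 of the 7 factors, all but Rfxank, the groups did not overlap and Nar was lower. This was so in 78.3% of all genes tested, a set of higher level that holds only Nfyc of these 7. Interferon-gamma is the best known inducer of Ciita. In its pathway 4 of 6 genes tested fell and 0 rose, beside 39.6% of all genes tested that fell, among them the receptor chains Ifngr1 (-1.74, SE 0.45, adjusted p = 0.0230) and Ifngr2 (-1.63, SE 0.42, adjusted p = 0.0235) and the transcription factor Irf1. Irf1 was listed at 6.50 and 8.85 FPKM in the Ctrl libraries and at 0.96 and 0.60 FPKM in the Nar libraries. Its difference was -3.16 (SE 0.42, adjusted p = 0.0043), and in the fit relative to Cd74 it was the single gene of the 6 that passed (-2.41, adjusted p = 0.0173). The kinases Jak1 (-1.01, adjusted p = 0.133) and Jak2 (-1.40, adjusted p = 0.0508) did not pass, and Ifng itself was too low to be tested.

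Of the endosomal genes that cut Cd74 or prepare peptides, 2 of 6 tested fell and 0 rose, a share no larger than the 39.6% over all genes tested. Ctss, cathepsin S, which makes the last cuts in Cd74 in B cells and dendritic cells, was at 24.68 and 11.81 FPKM in Ctrl, against 6.38 and 4.06 FPKM in Nar. It was lower with Nar by more than Cd74 in value (-1.73, SE 0.55, adjusted p = 0.0379), and the Cd74 to Ctss ratio was higher in both Nar libraries (10.4 and 15.5) than in both Ctrl libraries (4.26 and 9.43), although no endosomal gene passed in the fit relative to Cd74. Ctsl, cathepsin L, was the other (-2.09, SE 0.47, adjusted p = 0.0177). The proteases Ctsd (-1.18, adjusted p = 0.1001) and Ctsb (0.23, adjusted p = 0.695) and the thiol reductase Ifi30 (-1.17, adjusted p = 0.0862) did not pass. Of the genes for class II turnover and costimulation, 2 of 6 were tested. The ubiquitin ligase Marchf1, which removes class II from the surface, fell (-1.38, SE 0.36, adjusted p = 0.0237), as did 39.6% of all genes tested. It did not pass with haemoglobin removed (-0.91, adjusted p = 0.346) or under the median of ratios (-0.39, adjusted p = 0.730). Marchf8 had overlapping groups and did not pass (-0.08, adjusted p = 0.913). The costimulators Cd80, Cd86, Cd40 and Cd83 were at 0.66 FPKM or less.

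MHC class I presents peptides from inside the cell and shares no loading step with class II, so it was set beside it. Of its 9 genes tested, 7 fell and 0 rose (39.6% of all genes tested fell), with a median of -1.55 against -0.74 for class II. With haemoglobin removed these medians were -1.03 and -0.18, and under the median of ratios -0.51 and 0.28. H2-K1, a class I heavy chain, was listed at 56.04 and 144.66 FPKM in the Ctrl libraries and at 26.70 and 19.14 FPKM in the Nar libraries (-1.99, SE 0.60, adjusted p = 0.0329). B2m, the light chain, was at 1013 and 4728 FPKM in Ctrl, against 779 and 504 FPKM in Nar (-1.80, SE 0.64, adjusted p = 0.0496). Both were highest in Ctrl 3, the library high in platelet genes, whereas Cd74 and H2-Aa were alike in both Ctrl libraries. Without Ctrl 3 the value was -1.31 for H2-K1 and -0.69 for B2m, and without Ctrl 1 that of B2m was -2.92. The part of platelets in these values was not tested. The heavy chain H2-D1 (-1.44, adjusted p = 0.0894) and the chaperone Calr (-0.67, adjusted p = 0.251) did not pass. Relative to Cd74, 0 of the 9 class I genes passed, with 3 at an unadjusted p under 0.05, so a difference between class I and Cd74 was not shown. Without Ctrl 3 the class I median was -1.34 and the class II median -0.81.

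Most of these calls were lost with fewer libraries or on another scale. Without Ctrl 1 or without Ctrl 3, 0 of the 5339 genes passed, and without Nar 1 or Nar 3 there were 259 and 213. In the class I and endosomal lists 0 genes passed when any single library was left out, and in the interferon-gamma list 2 passed without Nar 1 and 1 without Nar 3. Irf1 also passed with haemoglobin removed (-2.69, adjusted p = 0.0039). With 2 libraries against 1 few calls can be made, and the class I median then ranged from -1.66 (without Ctrl 1) to -1.34 (without Ctrl 3). Under the median of ratios 0 genes of the class I, interferon-gamma and endosomal lists passed, and Calr (0.43), Jak1 (0.09), Ctsb (1.34) and Lgmn (0.49) lay above 0.

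The class II genes other than Cd74 and Ciita sit together on chromosome 17, among genes with other roles. Between 34092379 and 34341410 (249 kb), 14 genes had values, 7 of them among the 9 genes followed here. Of the 7 others, which include the class II genes H2-DMb2 and H2-Eb2, 5 were tested and 4 fell (39.6% of all genes tested fell), which were Tap1, Tap2, Psmb9 and Brd2. None of these 4 passed with any 1 library left out, with haemoglobin removed or under the median of ratios. The peptide pump subunits Tap1 (-1.79, SE 0.39, adjusted p = 0.0160) and Tap2 (-1.55, SE 0.39, adjusted p = 0.0225) lie between H2-DMb1 and H2-Ob. The Cd74 to Tap1 ratio was 21.0 and 26.9 in the Ctrl libraries, against 59.9 and 45.2 in the Nar libraries. It was higher in both Nar libraries, but Tap1 did not pass in the fit relative to Cd74 (-1.05, unadjusted p = 0.0232, adjusted p = 0.225). The immunoproteasome subunit Psmb9 (-1.11, adjusted p = 0.0403) and the chromatin reader Brd2 (-1.12, adjusted p = 0.0416) were close to the all-gene median, and Psmb8 was listed at 0 in all 4 libraries.

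**Figure D2:**
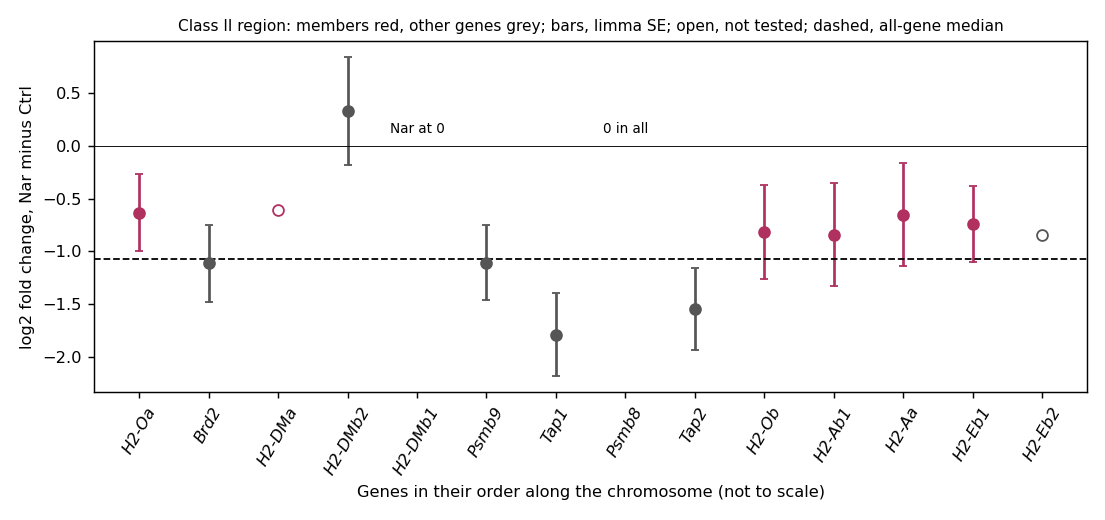
Log2 fold change (Nar minus Ctrl) of the 14 genes with values in the class II region, in chromosome order and not to scale; the class II genes followed here in red, others in grey, bars the limma SE, open circles genes too low to test and the dashed line the all-gene median of -1.07. The 5 red genes with bars lie between -0.84 and -0.63, Tap1 and Tap2 lie lowest at -1.79 and -1.55, H2-DMb2 is the only point above 0, and H2-DMb1 (Nar at 0) and Psmb8 (0 in all) have no point.

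Markers of the cells that could carry class II were counted next. Of 11 B cell markers tested 0 passed (39.6% of all genes tested fell and 0.187% rose), with a median of -0.34 and a range from -0.63 to 0.55. That median was -0.06 without Ctrl 1, -0.15 without Nar 3 and -0.64 without Ctrl 3. Its sign turned with the scale, to 0.28 with haemoglobin removed and 0.74 under the median of ratios, where all 11 lay above 0. The summed FPKM of the whole list of 12 was 50.17 in Ctrl 1 and between 35.19 and 36.63 in the other 3 libraries, so the groups overlapped. The B cell receptor component Cd79a was listed at 14.31 and 13.01 FPKM in the Ctrl libraries and at 10.62 and 10.88 FPKM in the Nar libraries. The Cd74 to Cd79a ratio was 7.34 and 8.56 in Ctrl and 6.26 and 5.77 in Nar, without overlap (exact permutation p = 0.33, the smallest possible). In the fit relative to Cd74, 0 of the 11 B cell markers passed.

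Among 8 monocyte markers 3 fell and 0 rose (Ly6c2, Ccr2 and Ms4a6c), close to the 39.6% of all genes tested that fell, with a median of -1.45. That median rested on single libraries, at -0.81 without Ctrl 1, -0.79 without Nar 3, -2.03 without Nar 1 and -2.12 without Ctrl 3, and was -0.37 under the median of ratios. Ly6c2, a mark of classical monocytes, was at 27.20 and 30.81 FPKM in Ctrl, against 2.70 and 0.83 FPKM in Nar (-4.17, SE 0.58, adjusted p = 0.0044). Its difference exceeded that of Cd74, by -3.43 in the fit relative to Cd74 (adjusted p = 0.0164), and it was the only 1 of the 8 to pass there. Cx3cr1, Adgre4 and Ace, markers of nonclassical monocytes, overlapped between the groups and were each high in Ctrl 1 alone. The Cd74 to Csf1r ratio overlapped as well. The summed monocyte list ranged from 72.66 to 85.15 FPKM in Ctrl and from 10.17 to 28.16 FPKM in Nar. Of 9 dendritic cell markers 4 were never above 0.1 FPKM, with Zbtb46 at 0.03 FPKM or less, and their sum was between 1.35 and 2.22 FPKM in Ctrl and between 0.48 and 1.08 FPKM in Nar. Neutrophils, which carry little class II, had the lowest median of the lists, -3.47, with 10 of 10 markers lower and 9 of 10 lower than Cd74 in the relative fit. Without Nar 1, 2 of the 8 monocyte and 5 of the 10 neutrophil markers passed, without Nar 3 it was 0 and 8, and without either Ctrl library 0 of both, in fits where 0 genes of any kind passed. The neutrophil median kept its size, at -3.33 without Ctrl 1 and -3.72 without Ctrl 3. Under the median of ratios 0 monocyte and 2 neutrophil markers passed. The part of each cell type in the class II values was not tested.

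**Figure D3:**
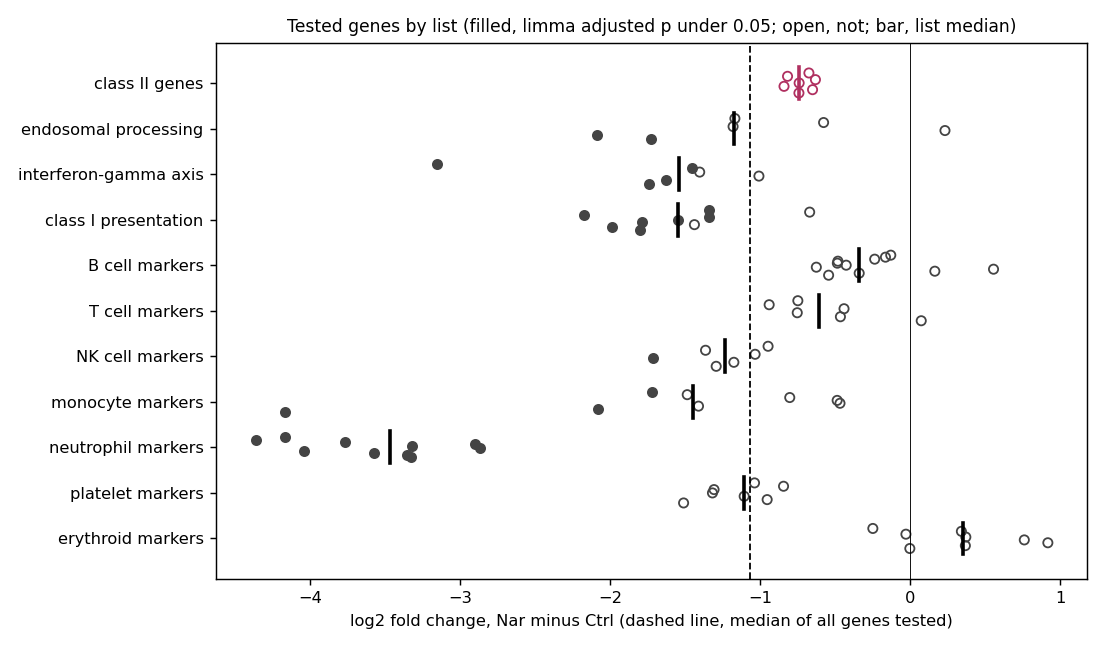
Log2 fold change (Nar minus Ctrl) of every tested gene by list, one point per gene, filled where the limma adjusted p was under 0.05, with the list median as a bar and the all-gene median of -1.07 dashed. With all 4 libraries the 7 class II genes, all open, lie close together around -0.74, between the B cell median of -0.34 and the class I median of -1.55. Without Nar 3 they ranged from -0.92 to -0.22 (not drawn). Neutrophil markers lie far to the left at a median of -3.47.

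The genes whose pattern was most like the mean pattern of the 7 class II genes tested were Dync1h1, Rpl36al, Dnajc7, Sf3b3 and Dusp2. Likeness was measured as the Euclidean distance between centred log2(FPKM + 0.1) values over 4 libraries, which was 0.0373 for Dync1h1 and 0.0904 for Dusp2. The class II genes themselves lay at distances from 0.112 (H2-Eb1) to 0.481 (H2-Ob), and 236 other genes (4.43%) lay within their median distance of 0.291. With 4 points the pattern was therefore shared by many genes.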

How the data were processed

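Messenger RNA of blood was purified with oligo(dT) beads and sequenced. What the authors deposited is a table of FPKM by gene with 2 decimals. The paper states alignment with bowtie-2, whereas the submitters' processing notes name TopHat2, Cufflinks and GRCm38, with versions not given in the sources used here. Genes blank in all 4 libraries (5313 of 23136) were left out, and 0 value columns were left over. Values were tested in R 4.3.3 with limma 3.58.1 (eBayes with trend) on log2(FPKM + 0.1) over the 5339 genes whose mean reached 0.5 FPKM, with Benjamini-Hochberg adjustment over all of them. The pseudocount understates changes of low genes. FPKM values are shares of a library, and counting error cannot be given because depth is unknown. The steps were tested on simulated normal values with as many rises as falls and no shift between libraries. That test does not cover a shift of most genes such as the one seen here. The DEGseq test of the study works on reads and was not repeated.

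The class II genes and all lists were chosen with earlier results of these data known. Named genes were the 9 class II genes, up to 4 genes a list by mean FPKM, genes at 0 in a group, and the 5 nearest in pattern; list genes beyond these (Ctsl, Ccr2, Ifngr2, Ifng, Cx3cr1, Adgre4, Ace, Rfxank, Cd80, Cd86, Zbtb46, Tap1, Tap2, Psmb9, Psmb8, Brd2, Lgmn, Lck and Cd3e) were named after their values were seen. March genes were matched by gene ID. Coordinates and promoters came from RefSeq (GRCm38.p6), and transcript identity from GENCODE. Alternatives were other pseudocounts (1 and 0.01), all genes unfiltered, a mean of at least 5 FPKM, TPM, haemoglobin removal, median of ratios, limma without trend, replicate blocks and each library left out.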

Additional observations from a re-analysis of the deposited data

How the results depend on the processing

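In every alternative 0 class II genes passed an adjusted p of 0.05 in limma, with the lowest at 0.0646 (H2-Ab1 with crossed numbers). Of 96 values of single genes under the alternatives, 33 came from settings that cannot change a fold (filters, limma without trend and the blocks), 56 others kept their direction and 7 reversed, all under the median of ratios: Cd74 0.37, H2-Aa 0.45, H2-Ab1 0.26, H2-Eb1 0.24, H2-Oa 0.42, H2-Ob 0.25 and Ciita 0.28. That scaling levels the typical gene by construction. The median log2 fold change of the class II genes, -0.74, became -0.60 with a pseudocount of 1, -0.18 with haemoglobin removed and 0.28 under the median of ratios, and ranged from -0.81 (without Ctrl 3) to -0.58 (without Nar 3) with 1 library left out, with -0.63 without Ctrl 1. Their median minus the B cell median, -0.40, became -0.65 at a mean of at least 5 FPKM (3 class II genes tested) and ranged from -0.58 (without Ctrl 1) to -0.17 (without Ctrl 3). Their median minus the all-gene median, 0.33, became 0.017 with a pseudocount of 1 and -0.17 with no filter, where many more low genes enter, and ranged from 0.14 (without Ctrl 3) to 0.56 (without Ctrl 1). Over all genes, 2123 passed, against 172 with haemoglobin removed, 25 under the median of ratios, 117 of 1083 at a mean of at least 5 FPKM, 0 of 16382 with no filter, and 0 to 259 with 1 library left out; with a single library in a group, its spread was assumed to be that of the other group. No source used here says whether same-numbered libraries share more than a number. Their deviations correlated at -0.15, which does not settle it. With the number as a replicate block, 0 class II genes and 1815 genes passed, and class I calls went from 7 to 4. The crossed pairing, added after seeing the data, gave 0 class II genes and 3233 genes. Values of low genes such as H2-DMa are limited by rounding to 2 decimals.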

Other observations

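T and NK cell markers, the lymphocyte lists not yet described, had medians on either side of that of the class II genes, -0.74. The counts below stand beside 39.6% of all 5339 genes tested that passed as lower with Nar and 0.187% that passed as higher. Of 6 T cell markers tested 0 passed, with a median of -0.61 and a range from -0.94 (Lck) to 0.07 (Cd3e). That median was -0.36 without Ctrl 1 and -0.37 without Nar 3, and turned to 0.37 under the median of ratios. Of 6 NK cell markers 1 fell, the granzyme Gzma (-1.72, SE 0.51, adjusted p = 0.0322 in limma), with a list median of -1.24 that was -0.71 without Ctrl 1 and -0.74 without Nar 3. Gzma did not pass with any 1 library left out, with haemoglobin removed or under the median of ratios. Of 7 platelet markers 0 passed (median -1.11), and of 8 erythroid markers 0 passed (median 0.35). Both medians rested on single Ctrl libraries: the platelet median was -1.81 without Ctrl 1 and -0.40 without Ctrl 3, and the erythroid median was -0.11 without Ctrl 1 and 0.66 without Ctrl 3, with 0.10 without Nar 1. Under the median of ratios the NK cell median was -0.33, the platelet median 0.0013 and the erythroid median 1.46. With haemoglobin removed the erythroid median was 0.97 and 1 of the 8 passed as higher, against 11 of all 5329 genes tested there. The Cd74 to Alas2 ratio, set against the rate-limiting enzyme of heme synthesis in red cells, was 0.0173 and 0.0159 in the Ctrl libraries, against 0.0102 and 0.00968 in the Nar libraries, without overlap (exact permutation p = 0.33, the smallest possible).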
